A study of Rattus norvegicus with 10 samples.

Results

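The genes that handle arginine and the polyamines were described in the trigeminal ganglion (TG) of rats with oral ulcerative mucositis (OUM). They were *Arg1*, *Arg2*, *Odc1*, *Azin1*, *Amd1*, *Srm*, *Sms*, *Sat1*, *Smox* and *Nos1*, taken as every probe whose accession belongs to one of them. They are 10 of 15501 genes with a symbol on the array and 14 of its 30367 probes. Of these, 12 probes of 9 genes were well above background, and both probes of *Nos1* were not. The brightest probe of each of the 9 genes was among 19655 features tested. Of these features 11981 had a symbol, and the others were single probes without one. The genes were chosen by the differences between the same OUM and naive arrays, which were already in view for *Arg1* and *Sat1*, and the study itself listed *Arg1* from these arrays. The OUM against naive values of the 10 genes are therefore a description, given without a test, and their direction is not independent evidence.

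The naive group was 5 male Wistar rats that received anesthesia alone, recorded in the labels as day 2 after control treatment. The OUM group was 5 male Wistar rats of the same age (8 weeks in the methods), anesthetized with pentobarbital, in which filter paper carrying 50% acetic acid lay for 30 s on the mucosa in front of the lower incisors. Whole TGs of both sides were taken on day 2 after saline perfusion, with 1 one-colour array per rat. The acid touched only tissue supplied by part of the ganglion, whereas each array measured the whole of it. Values are log2 signal relative to the 75th percentile of the same array, so that a value of 0 lies at that percentile, and they can be compared between arrays but not between probes.

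Arginase splits arginine into ornithine and urea, and nitric oxide synthase competes with it for the same arginine. Ornithine decarboxylase turns ornithine into putrescine, from which spermidine and spermine are built with groups donated by decarboxylated S-adenosylmethionine, while acetylation and oxidation lead back toward putrescine. In sensory ganglia arginase 1 and the polyamines are known from work on axon regrowth after nerve injury, and arginase 1 also marks alternatively activated macrophages.

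Across all 19655 features, limma with Benjamini-Hochberg adjustment called 2 between OUM and naive, 0.0102% of those tested, and neither was one of the 9 genes. None of the 9 was past the adjusted threshold in any of the 28 alternatives run. At an unadjusted p under 0.05, 3.79% of all features were higher and 5.09% lower in OUM. Groups that did not overlap were found for 1.82% of all features, 0.763% with OUM higher and 1.05% with OUM lower. Of the 9 genes, *Arg1* was past both of these limits in the higher direction and *Sat1* in the lower. Both had come to be chosen with these differences in view, so nothing is read from that count. The median difference over the 9 genes was -0.067, against -0.012 over all features.

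*Arg1*, the cytosolic arginase best known from the urea cycle of the liver, showed the largest difference of the 9 genes. It read -3.27, -3.39, -2.97, -3.48 and -3.32 on naive arrays 1 to 5. It read -2.93, -2.34, -2.42, -2.45 and -2.63 on OUM arrays 1 to 5. Every OUM array lay above every naive array, although OUM array 1 exceeded naive array 3 by no more than 0.036. The mean was -3.29 ± 0.20 (SD, n = 5) in naive TG and -2.55 ± 0.24 (SD, n = 5) in OUM TG, a difference of 0.73 with a standard error (SE) of 0.13 and a fold of 1.66. This difference was larger than the SD of either group. In RNA of whole ganglia, more cells that carry a transcript and more transcript per cell cannot be told apart.

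**Figure D1:**
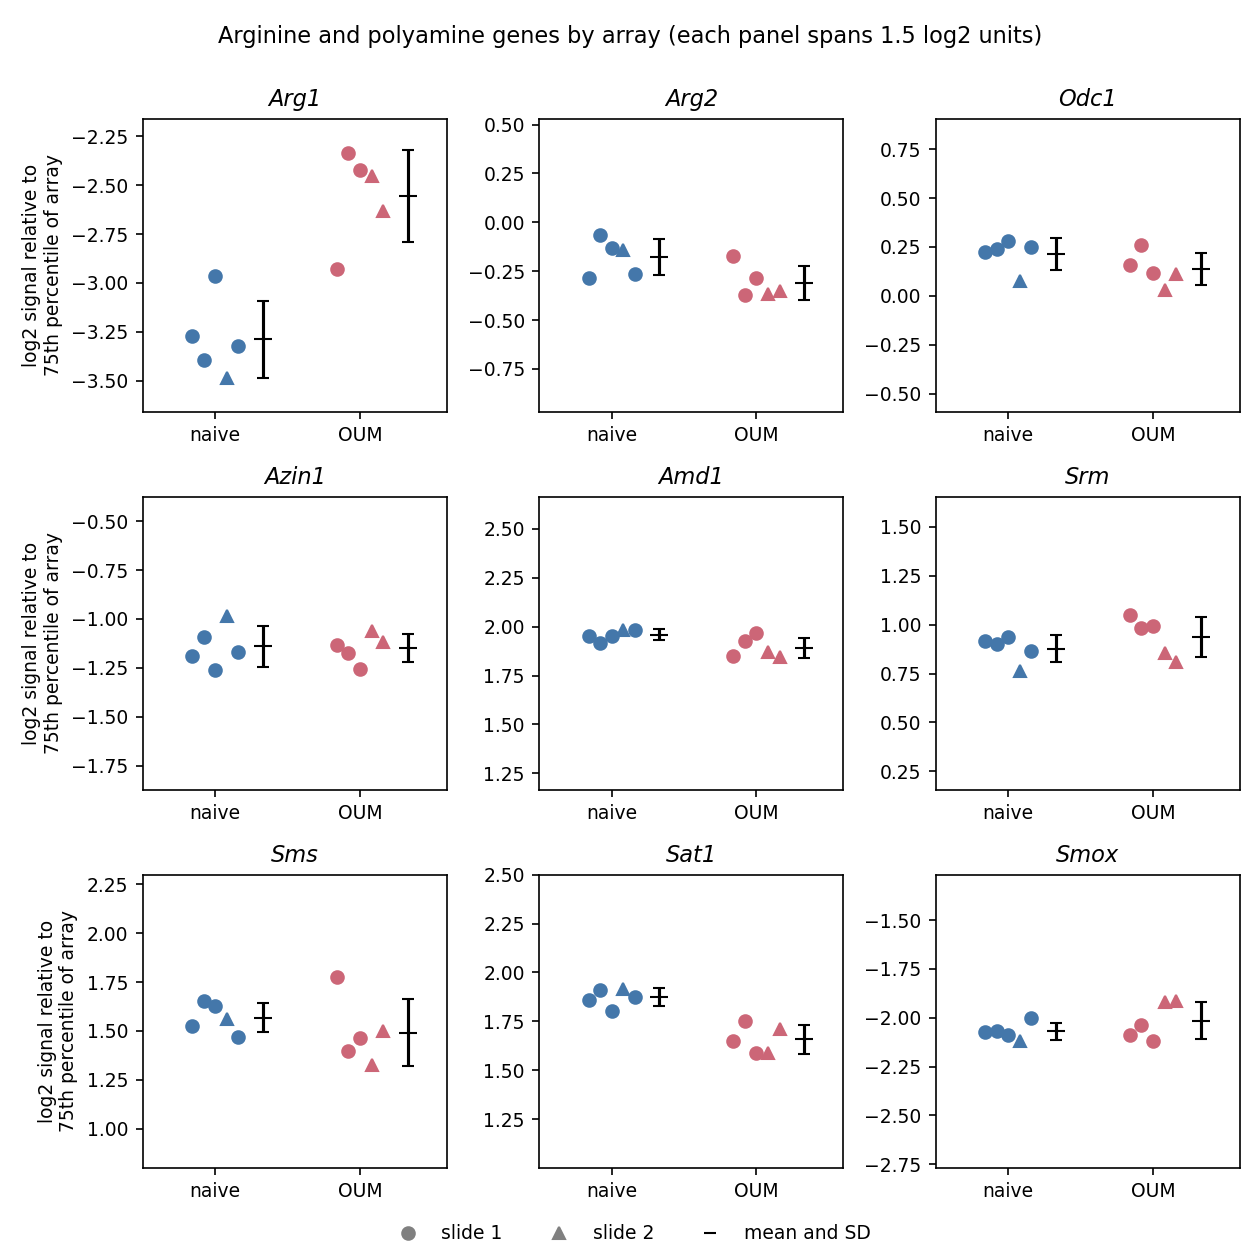
Log2 signal relative to the 75th percentile of the array (y axis) for the 9 measured genes, in 5 naive and 5 OUM arrays, with circles for slide 1, triangles for slide 2, and the mean and SD beside each group; every panel spans the same number of log2 units. The groups are apart for *Arg1*, where OUM arrays read -2.93 to -2.34 above naive arrays at -3.48 to -2.97, and for *Sat1*, where OUM arrays lie below; in the other 7 panels they overlap.

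The probe of *Arg1* was printed as 10 spots on each array, which gives the spread of its value within an array. The SD among these spots had a median of 0.074 over the 10 arrays and ranged from 0.063 to 0.11. The lowest spot on any OUM array read -3.02 and the highest on any naive array read -2.86, so single spots of OUM array 1 and naive array 3 overlapped while their means did not.

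**Figure D2:**
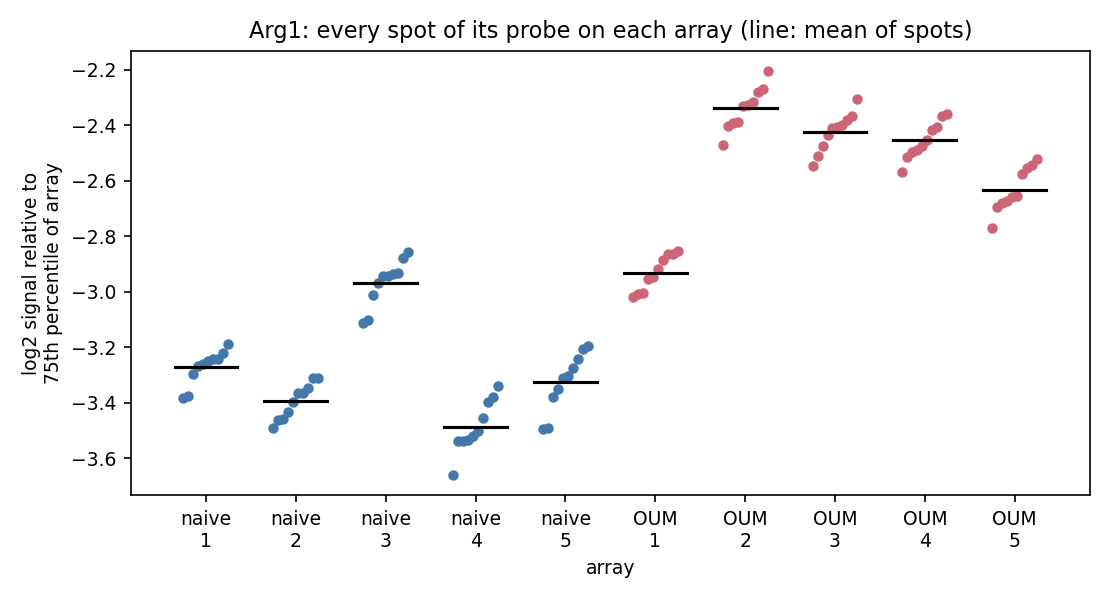
Each of the 10 spots of the *Arg1* probe on the 5 naive and 5 OUM arrays, with the log2 signal relative to the 75th percentile of the array on the y axis and the mean of the spots as a line. Spots of OUM arrays 2 to 5 all lie above those of the naive arrays, and spots of OUM array 1 overlap those of naive array 3, with the lowest OUM spot at -3.02 and the highest naive spot at -2.86.

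*Arg2*, the mitochondrial arginase, read -0.28, -0.07, -0.13, -0.14 and -0.27 on the naive arrays. On the OUM arrays it read -0.17, -0.37, -0.28, -0.37 and -0.35. The groups overlapped, with means of -0.18 ± 0.093 and -0.31 ± 0.086 (SD, n = 5 each) and a difference of -0.13 (SE 0.059). The difference of *Arg1* was positive and that of *Arg2* negative. *Nos1*, the nitric oxide synthase of neurons, had a pair of probes that stayed near background. The first was detected on 0 of 5 naive and 1 of 5 OUM arrays and the other on 1 of 5 arrays of each group, so no fold is given.

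At the brightest probe of each gene of polyamine synthesis, the naive and OUM arrays overlapped. *Odc1*, which encodes ornithine decarboxylase, read 0.22, 0.24, 0.28, 0.08 and 0.25 on the naive arrays and 0.16, 0.26, 0.12, 0.03 and 0.11 on the OUM arrays, a difference of -0.078 (SE 0.055). Naive array 4 lay well below the other naive arrays, inside the OUM range. *Azin1* encodes an inactive relative of ornithine decarboxylase that frees the enzyme from its antizyme, and its naive mean of -1.14 ± 0.10 and OUM mean of -1.15 ± 0.071 (SD, n = 5 each) differed by -0.0079 (SE 0.059). Its naive arrays spanned -1.26 to -0.99 and its OUM arrays -1.25 to -1.06, almost the same range.

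*Amd1* encodes the enzyme that decarboxylates S-adenosylmethionine and so supplies the aminopropyl groups. It was the steadiest of the 9 genes, with an SD within groups at the 2.55th percentile of all features tested. Its naive arrays read 1.95, 1.92, 1.95, 1.98 and 1.99, and its OUM arrays read 1.85, 1.92, 1.97, 1.87 and 1.84. OUM arrays 1, 4 and 5 lay below every naive array and OUM arrays 2 and 3 did not, and the difference was -0.067 (SE 0.039).

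*Srm*, spermidine synthase, had a pair of probes. The brighter one read 0.92, 0.90, 0.94, 0.76 and 0.87 on the naive arrays and 1.05, 0.98, 0.99, 0.86 and 0.81 on the OUM arrays, a difference of 0.062 (SE 0.058), and the dimmer one differed by 0.10 (SE 0.065). In both groups the arrays on the second of the 2 slides held the lowest values. *Sms*, spermine synthase, had 3 probes whose differences were -0.075 (SE 0.081), -0.11 (SE 0.074) and -0.049 (SE 0.12). OUM array 1 read 1.77 at the brightest of these, above every naive array, while OUM arrays 2 to 4 read 1.40, 1.46 and 1.33, all below the naive arrays at 1.47 to 1.65, and OUM array 5 lay inside the naive range. The probes of each gene had the same sign, and each of these differences was smaller than 2 SE.

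**Figure D3:**
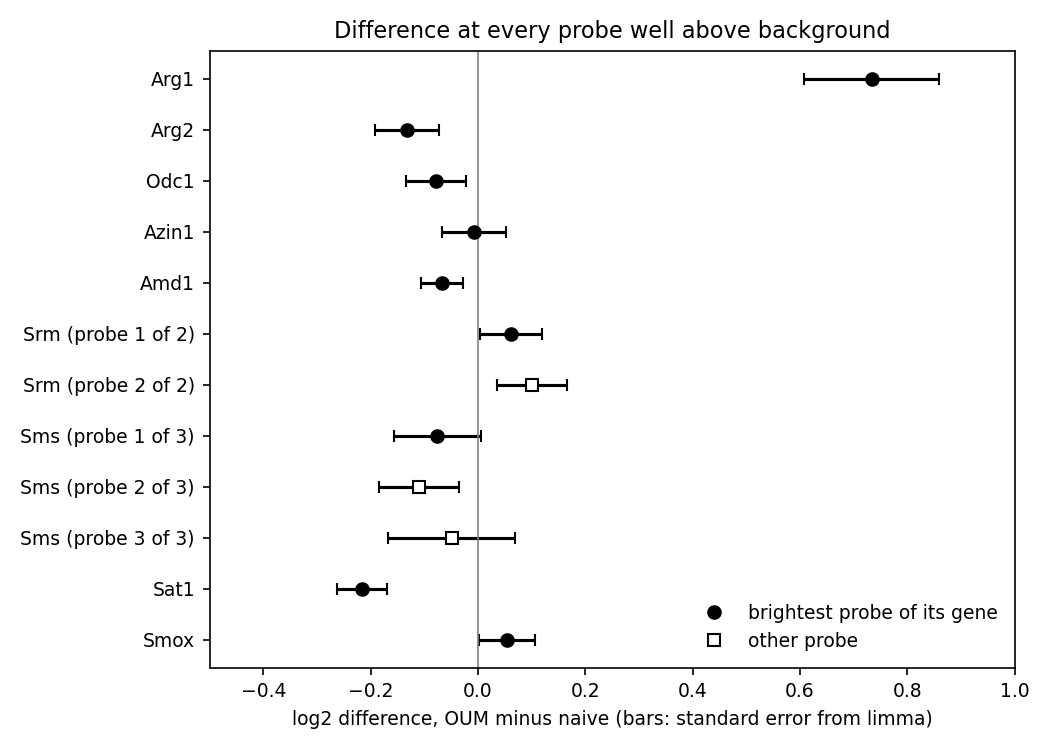
Difference between OUM and naive means in log2 units (x axis) for each of the 12 probes well above background, with the SE from limma as bars, a filled circle for the brightest probe of a gene and an open square for its other probes. *Arg1* stands at 0.73 and *Sat1* at -0.22, and the remaining probes lie between -0.13 and 0.10.

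*Sat1* encodes spermidine/spermine N1-acetyltransferase, the rate-limiting enzyme of polyamine breakdown, and it was the other gene whose groups did not overlap. On the naive arrays it read 1.86, 1.91, 1.80, 1.91 and 1.88. On the OUM arrays it read 1.65, 1.75, 1.59, 1.59 and 1.71. All 5 OUM arrays lay below all 5 naive arrays, and the nearest pair, naive array 3 and OUM array 2, were 0.048 apart. The means were 1.87 ± 0.046 and 1.66 ± 0.075 (SD, n = 5 each), a difference of -0.22 (SE 0.047) and a fold of 0.861. Naive array 3 was the naive array closest to the OUM group for both *Arg1* and *Sat1*.

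*Smox*, spermine oxidase, which returns spermine to spermidine, read -2.07, -2.07, -2.09, -2.12 and -2.00 on the naive arrays and -2.09, -2.04, -2.12, -1.92 and -1.92 on the OUM arrays. Its difference of 0.054 (SE 0.052) came from OUM arrays 4 and 5, both on slide 2. The difference was -0.024 within slide 1 and 0.20 within slide 2.

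The 250 bases before the transcription start of *Sat1* and of *Odc1* are shown as the sequences upstream of the enzymes that gate polyamine breakdown and synthesis. They are RefSeq sequences on the GRCr8 assembly, written 5′ to 3′ along the gene, with capitals for the motif matches described after them.
*Sat1* (chrX:44007839-44008088, + strand): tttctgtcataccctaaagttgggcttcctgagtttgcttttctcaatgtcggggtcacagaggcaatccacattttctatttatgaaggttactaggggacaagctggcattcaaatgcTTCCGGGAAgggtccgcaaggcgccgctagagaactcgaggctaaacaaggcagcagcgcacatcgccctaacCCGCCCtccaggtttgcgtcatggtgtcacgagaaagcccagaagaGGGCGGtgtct
*Odc1* (chr6:46058415-46058664, + strand): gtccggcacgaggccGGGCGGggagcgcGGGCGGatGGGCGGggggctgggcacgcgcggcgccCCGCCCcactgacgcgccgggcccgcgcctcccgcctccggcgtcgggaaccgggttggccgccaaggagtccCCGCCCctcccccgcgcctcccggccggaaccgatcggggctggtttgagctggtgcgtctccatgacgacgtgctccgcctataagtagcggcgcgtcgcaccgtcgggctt

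The window of *Sat1* held TTCNNNGAA, the pair of half-sites bound by STAT factors, at bases -130 to -122 from the start, and GGGCGG, the GC box, at -57 to -52 on the opposite strand and at -11 to -6. The window of *Odc1* held GGGCGG at 5 places and was 78.0% GC, against 52.8% for *Sat1* and a median of 51.2% over 33469 rat promoters. Searched on both strands, TTCNNNGAA was present in 7.67% of these promoters and GGGCGG in 30.5%. Of the 7 genes here with a promoter in the RefSeq table, GGGCGG was present in 6 and TTCNNNGAA in *Sat1* alone. The other motifs searched were TATAAA (12.9% of promoters, found for *Amd1*), CACGTG (5.59%, *Srm*), TGACGTCA (1.59%, *Nos1*), TGANTCA (6.34%, *Nos1*), CCAAT (34.0%, *Srm*), the STAT pair with a spacer of 4 (6.25%) and TTGCNNAA (9.22%), the last pair with no match in the 7. Such matches are letters in a window and were not tested for binding.

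The rest of the pathway was taken from 4 lists that were not picked for how their genes differed, although earlier results of these data were known. Of 48 genes, 43 had a probe and 40 were tested, of which 0 passed the adjusted threshold of limma and 1 (2.5%) passed an unadjusted p under 0.05, against 8.88% of all features in either direction. That gene was *Nos3*, the endothelial nitric oxide synthase, which read -4.05, -4.33, -3.95, -4.26 and -4.04 on the naive arrays and -3.98, -3.80, -3.89, -3.77 and -3.81 on the OUM arrays. OUM array 1 fell inside the naive range and the other OUM arrays lay above it. The difference was 0.28 (SE 0.079, limma adjusted p = 0.463, two-sided exact permutation p = 0.0159 over all assignments of the arrays), so it did not pass the test across all features. Within the arrays of slide 1 it was also past no unadjusted limit.

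At their brightest probes, the other genes of the arginine and urea cycle list, 15 tested in all, had differences from -0.30 to 0.18. The median of the list was -0.0056. The highest of these was *Prodh*, at 0.18 (SE 0.11). Its dimmer probe differed by 0.39 (SE 0.10, limma adjusted p = 0.416 with every probe tested, exact permutation p = 0.0159). In polyamine regulation and breakdown, 0 of 9 tested genes passed an unadjusted p under 0.05, with a median of -0.025. The gene with the largest difference there was *Oaz3*, an antizyme known from the testis, at 0.32 (SE 0.22, limma adjusted p = 0.700, exact permutation p = 0.222). Among the carriers of arginine and polyamines it was 0 of 8, with a median of -0.042 and the largest difference at *Slc12a8*, -0.20 (SE 0.13, limma adjusted p = 0.668, exact permutation p = 0.167). In the methionine cycle and its salvage route, which feed the aminopropyl donor, it was also 0 of 8, with a median of -0.0077. At the brightest probes the largest difference there was at *Mtr*, methionine synthase, -0.088 (SE 0.070, limma adjusted p = 0.731, exact permutation p = 0.246). A dimmer probe of *Mat2b* differed by -0.18 (SE 0.071, limma adjusted p = 0.527 with every probe tested, exact permutation p = 0.0476).

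**Figure D4:**
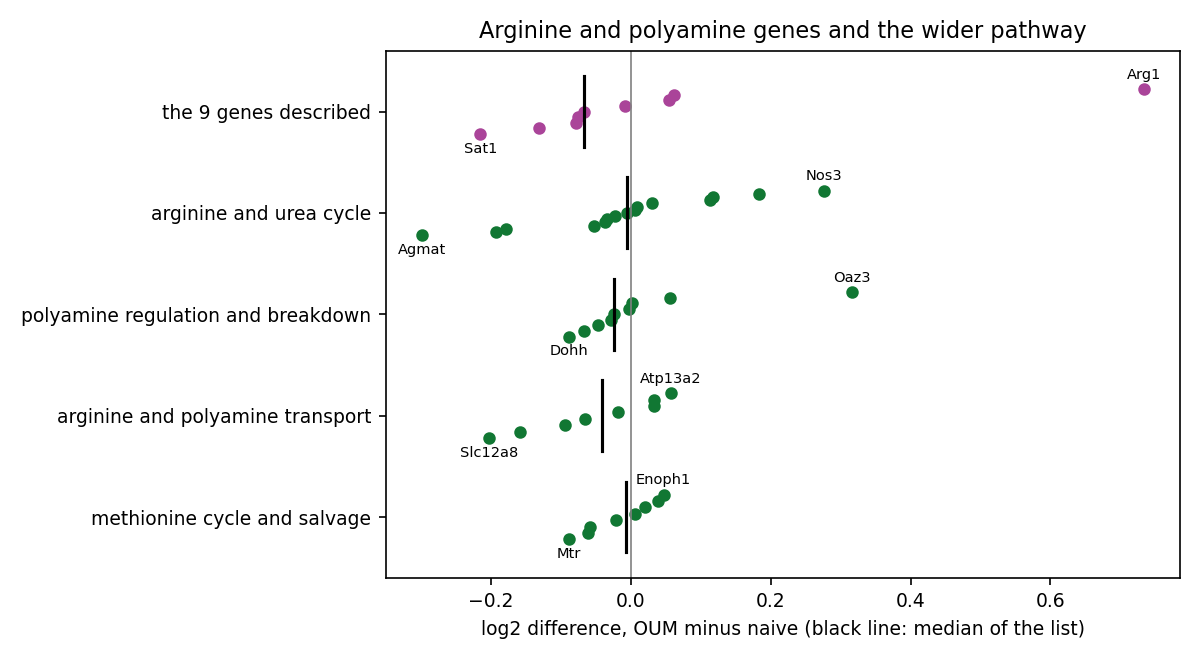
Difference between OUM and naive means in log2 units (x axis) for the 9 genes described and for the tested genes of the 4 wider lists, 1 point per gene at its brightest probe, with the median of each list as a black line and the lowest and highest gene of each list named. *Arg1* at 0.73 lies outside the range of the 40 wider genes, -0.30 to 0.32, and the medians of the wider lists lie between -0.042 and -0.0056.

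Naive arrays 1, 2, 3 and 5 and OUM arrays 1, 2 and 3 were on slide 1, and naive array 4 and OUM arrays 4 and 5 on slide 2. With the group in the model, a comparison chosen after the values had been seen, 1 of the 9 genes passed the adjusted threshold of limma, a share near the 12.9% of all features that passed it in either direction. That gene was *Srm*, lower on slide 2 at -0.16 (SE 0.037, adjusted p = 0.0194). *Odc1* gave -0.13 (SE 0.044, limma adjusted p = 0.0860) and *Azin1* gave 0.13 (SE 0.050, limma adjusted p = 0.122), neither past the threshold. *Arg1* gave -0.086 (SE 0.14) and *Sat1* 0.013 (SE 0.052).

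Blocking on the slide gave an *Arg1* difference of 0.75, and the arrays of slide 1 and of slide 2 alone gave 0.68 and 0.94. The same settings gave -0.22, -0.20 and -0.26 for *Sat1*. Slide 2 held a single naive array, whose spread is taken to be like that of the OUM arrays. Leaving out each array in turn gave 0.68 to 0.83 for *Arg1* and -0.24 to -0.20 for *Sat1*. For *Srm* the difference was 0.062 (SE 0.058) without the slide in the model, 0.094 (SE 0.034) with it and 0.10 (SE 0.043) within slide 1. These values are a description, since the slide was compared after the values had been seen.

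Deviations from the group mean do not use the contrast by which the genes were chosen, and over the 10 arrays they were used to relate *Arg1* to the other 8 genes. The strongest relation was with *Azin1* (Pearson r = -0.61, exact permutation p = 0.0715, adjusted p = 0.502 over 8 relations; Spearman rho = -0.64, exact permutation p = 0.0572, adjusted p = 0.418). *Sms* followed (r = -0.58, exact permutation p = 0.125, adjusted p = 0.502; rho = -0.45, exact permutation p = 0.227, adjusted p = 0.418). For *Sat1*, r was -0.29 (exact permutation p = 0.491, adjusted p = 0.655) and rho -0.38 (exact permutation p = 0.313, adjusted p = 0.418). None of the 8 relations passed the threshold, and all permutations were two-sided and within groups.

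Without naive array 3 and OUM array 1, the arrays farthest from the median of *Arg1*, r was -0.65 for *Azin1*, -0.51 for *Sms* and -0.18 for *Sat1*. Within the 7 arrays of slide 1, r was -0.76 for *Azin1*, -0.65 for *Sms* and -0.12 for *Sat1*, with exact permutation adjusted p = 0.704, 0.704 and 0.882, while the 3 arrays of slide 2 were too few for a value. For *Sms*, r was -0.013 without OUM array 1 alone and -0.86 without naive array 3 alone, and for *Azin1* it was -0.76 and -0.43. For *Srm*, r was 0.85 without both arrays, against 0.12 with them, and -0.27 within slide 1, which holds both.

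**Figure D5:**
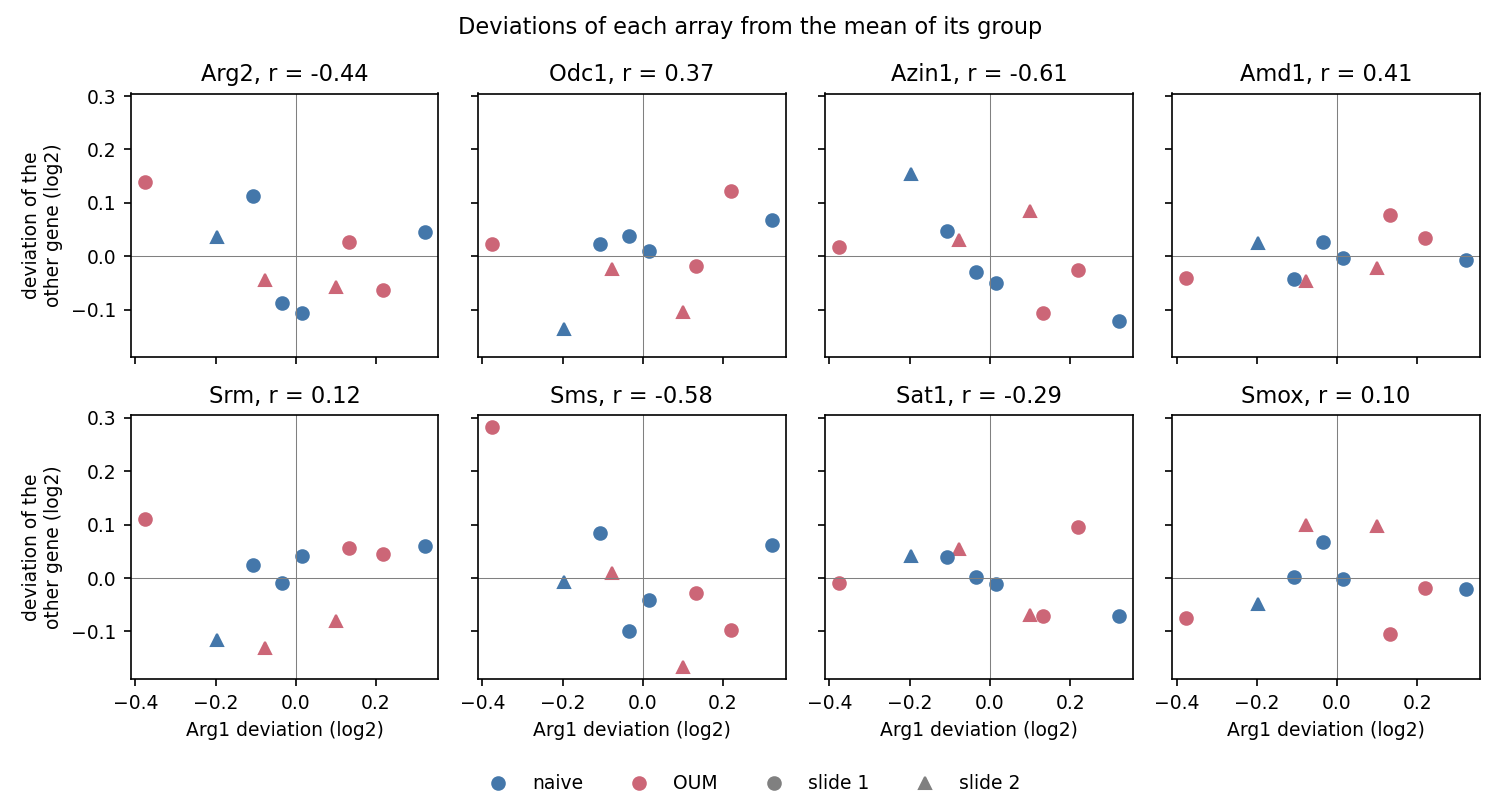
Deviation of each array from the mean of its group in log2 units, for *Arg1* on the x axis and for each of the other 8 measured genes on the y axis, with blue for naive, red for OUM, circles for slide 1 and triangles for slide 2. Pearson r over the 10 arrays stands above each panel and runs from -0.61 for *Azin1* to 0.41 for *Amd1*; OUM array 1 and naive array 3 are the leftmost and rightmost points.

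Of 11980 other features with a symbol, those whose deviations most resembled *Arg1* over the 10 arrays were *Pak5* (Pearson r = 0.94), *Il17re* (0.90), *Csrp3* (0.90), *Podxl* (0.90) and *Srgn* (0.89). *Csrp3*, a muscle LIM protein, had an OUM minus naive difference of 1.22 (SE 0.35), and the other 4 had differences of -0.073 to 0.11. *Csrp3* was well above background on 4 of 5 naive and 5 of 5 OUM arrays, so it entered the test through the OUM group alone. Its groups overlapped. For *Sat1* the features most alike were *Wfdc3* (0.93), *Trim14* (0.88), *Ms4a6bl1* (0.85), *Xylb* (0.85) and *Hbe2* (0.84), with differences of -0.25 to 0.025. The points share arrays, slides and scaling, and with so many features searched over 10 arrays these values are a description.

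All 7 neuron markers with a probe were well above background on every array. As a sum of linear signals in units of the 75th percentile of the array, they read 409 to 461 on naive and 372 to 478 on OUM arrays, and 6 of the 7 had a lower mean in OUM. Of these, *Scn9a*, a sodium channel of nociceptors, was at -0.15 (SE 0.040, limma adjusted p = 0.428), with all OUM arrays below all naive arrays, as for 1.05% of all features. It was the 1 neuron marker (14.3%) past an unadjusted p under 0.05, against 5.09% of all features in the lower direction. Past the same limit was 1 of 6 satellite glia markers (16.7%), *Fabp7*, lower at -0.31 (SE 0.11, limma adjusted p = 0.497). So was 1 of 6 Schwann cell markers (16.7%, against 3.79% of all features higher), *Sox10*, at 0.17 (SE 0.059, limma adjusted p = 0.498). In each of these glial lists 4 of the 6 had a higher mean in OUM. Of all 19655 features, 8835 had a higher mean in OUM. With so few markers per list, nothing is read from 1 call. As sums on the same scale, the 10 macrophage markers read 15.3 to 17.8 on naive and 15.8 to 21.1 on OUM arrays. In OUM 9 of the 10 had a higher mean, and 0 of the 10 passed an unadjusted p under 0.05 in limma, against 8.88% of all features. The sum was highest on OUM arrays 3 and 4, at 20.7 and 21.1, and it weighs *Lyz2*, the brightest marker, most. OUM array 2, highest for *Arg1*, read 17.0, inside the naive range, but its single markers differed. There *Ptprc*, *Tyrobp*, *Csf1r*, *Cd14* and *Adgre1* lay above every naive array and *Itgam* and *Cx3cr1* below. *Lyz2*, *Cd68* and *Aif1* lay inside the naive range. Of 8 markers of alternatively activated macrophages, 5 were measured, with sums of 0.410 to 0.591 on naive and 0.452 to 0.639 on OUM arrays, and *Retnla* and *Pdcd1lg2* were not well above background on any array. In OUM 4 of the 5 had a higher mean, and 1 (20%) was past an unadjusted p under 0.05 in the higher direction, against 3.79% of all features. That was *Ccl17*, a chemokine, at 0.39 (SE 0.098, limma adjusted p = 0.399), which was well above background on 2 of 5 naive and 5 of 5 OUM arrays. It entered the test through the OUM group alone and lay near background in naive TG, so nothing is read from that share. The part of these cells in the *Arg1* difference was not tested.

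Of 8 neutrophil markers, 4 were measured (0.346 to 6.04 in naive, 0.295 to 3.24 in OUM), and *Cxcr2* and *Ltf* were not well above background on any array. Pituitary hormone markers, 6 of 8 measured, were high on naive array 1, OUM array 1 and OUM array 2, at 19.4 to 26.0 against 0.345 to 5.33 on the others. Without those 3 arrays the *Arg1* difference was 0.79 and that of *Sat1* was -0.25. The nerve injury genes, like the other markers, were chosen with earlier results of these data known, so their share is a description and not independent evidence. Of 9 measured nerve injury genes, 5 (55.6%, against 3.79% of all features) were higher in OUM at an unadjusted p under 0.05 and 0 passed the adjusted threshold of limma. Among these, *Atf3*, a transcription factor of injured neurons, differed by 0.46 (SE 0.083, limma adjusted p = 0.233) and *Csf1*, a macrophage growth factor, by 0.44 (SE 0.090, limma adjusted p = 0.281). For both the OUM arrays lay above all naive arrays, as for 0.763% of all features.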

How the data were processed

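TG RNA of 5 naive and 5 OUM model rats was measured on 1 one-colour Agilent array per rat. The authors quantified the scans with Agilent Feature Extraction 10.7.1.1, and the deposited files hold a processed signal per spot, an intensity after background subtraction. The authors' own value table, on a linear scale relative to roughly the 75th percentile of each array, served as an alternative.

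Control spots and outlier spots were left out (1 *Amd1* spot on OUM array 4), and the spots of a probe were averaged. Values are log2 of this deposited intensity over the 75th percentile of the array's gene spots, which ranged from 2617 to 2939. A probe was well above background on an array when the marked spots were no fewer than the unmarked ones, which held for 70.9% to 77.2% of probes. At most 1 gene spot was saturated on an array. Accessions were matched to symbols through a RefSeq table of GRCr8, which gave 18430 of 30367 probes 1 symbol. Each gene was represented by its brightest probe, and features entered the test if either group had them well above background on 5 of 5 arrays.

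The groups were compared in R 4.3.3 by lmFit and eBayes of limma 3.58.1, two-sided, with Benjamini-Hochberg adjustment over 19655 features and a threshold of 0.05. Single genes of the wider lists had an exact permutation test over every split of the 10 arrays into 5 and 5, which cannot give a p below 0.00794, and relations one over 14400 orders within groups. The limma fit and the relation test were tested on simulated data. Alternatives were other scalings, filters, probe rules and tests, the slide, a block on the replicate number and each array left out. The slide comparison and the relations within slide 1 were added after seeing the data.

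The genes, the wider lists and the markers were chosen with earlier results of these data known. Named genes were the 10 chosen, up to 3 per wider list at an unadjusted p under 0.05 or else the one with the largest difference, and the 5 features most like *Arg1* and the 5 most like *Sat1*. *Atf3*, *Csf1*, the named markers and the dimmer probes of *Prodh* and *Mat2b* were singled out after their values were seen. The number of arrays limits the precision, and p-values measure the spread between rats.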

Additional observations from a re-analysis of the deposited data

Results flagged for a closer look

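*Odc1* on naive array 4 read 0.077, far from the other 4 naive arrays, of which the nearest read 0.22. The gap took 0.72 of the whole naive range, above Dixon's critical value for 5 samples. Chance gives such a gap in about 1 of 20 groups, and 24 groups of the 12 measured probes were looked at. This was the only naive array on slide 2.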

How the results depend on the processing

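The signs of the differences of *Arg1*, *Arg2*, *Odc1*, *Amd1*, *Srm*, *Sms* and *Sat1* held in all 26 alternatives that recomputed them, with 0.60 to 0.94 for *Arg1* and -0.26 to -0.19 for *Sat1*. *Azin1* changed sign in 7 of the 26 and *Smox* in 1. Within slide 2 the difference was -0.13 for *Amd1*, -0.10 for *Azin1* and 0.20 for *Smox*, and within slide 1 it was -0.024 for *Smox*. The count of the 9 genes at an unadjusted p under 0.05, given without weight since they were chosen by this contrast, was 2 (*Arg1*, *Sat1*) and 1 (*Arg1*) within slide 2. It was 3 with the slide as a block and within slide 1 (*Srm* added). The methods' t-test gave 4 (*Amd1*, *Arg1*, *Arg2*, *Sat1*), and leaving out single arrays gave 2 to 4, with 4 (*Arg2* and *Sms* added) without OUM array 1. Of all features, 2309 passed that limit with the slide as a block, 1615 with the methods' t-test and 2468 without OUM array 1, against 1745 in the main setting. Over all features, limma called 2 at the adjusted threshold, 0 with the median, the percentile of detected probes or quantiles as the scale, with no filter, with probes positive and significant, with every probe or the mean of probes, with the methods' t-test, with the authors' values and without the 3 arrays rich in pituitary genes, and 1 with an intensity trend. It called 164 within slide 2, where 1 naive array met 2 OUM arrays, and 0 to 1 with single arrays left out. At an unadjusted p under 0.05 it called 1745 of 19655, 2747 within slide 1, 1647 with normexp and 1637 without the 3 arrays rich in pituitary genes. It called 1746 with the mean of probes and 1935 with every probe. Single arrays left out gave 1192 to 2468, the highest being without OUM array 1. Of the wider genes, 1 passed that limit (*Nos3*), against 2 with normexp (*Agmat* added), 2 with the mean of probes (*Prodh* added), 3 with every probe (*Mat2b* and *Prodh* added), 2 within slide 1 (*Nags* and *Slc12a8*, without *Nos3*), 5 within slide 2 (*Agmat*, *Gatm*, *Nos2*, *Nos3*, *Otc*), 4 without the pituitary-rich arrays (*Oaz3*, *Prodh* and *Slc7a7* added) and 1 to 4 with single arrays left out, 4 being without OUM array 1 (*Gatm*, *Prodh* and *Slc7a7* added). These names were seen before they were listed. The relation of *Arg1* with *Smox* was -0.28 without naive array 3 and OUM array 1, -0.062 within slide 1 and -0.26 to 0.29 with single arrays left out, and that with *Srm* was -0.089 to 0.74. The cause of these changes was not tested. Deviations of same-numbered naive and OUM arrays correlated at -0.092 to 0.13, except for number 4 at 0.32, whose 2 arrays were both on slide 2. The numbers were therefore not taken as pairs. With the replicate block 0 features passed the adjusted threshold, and *Arg1* stayed at 0.73 (SE 0.12). There 2 wider genes (*Agmat* added) passed the unadjusted limit, against 1431 of all features. Depth in an array is its signal over background, which left *Nos1* unmeasured.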
